A study of Populus davidiana with 6 samples.

Results

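The 234 genes described here are poplar gene identifiers with a listed span of at least 15000 bp, taken as the distance between the first and the last base of all their listed transcripts. Each carries the POPTR prefix of the poplar annotation and has at least 1 transcript marked as known. They made up 0.650% of the 35986 POPTR identifiers with a known transcript, and the series lists 40537 gene identifiers in all. The 3 shortest spans admitted were 15014, 15022 and 15025 bp, and the 3 longest left out were 14992, 14976 and 14948 bp. The expression of a gene is the sum of its transcripts in FPKM, the number of fragments divided by transcript length and by the size of the library, so that it is a level per length. Of the 234 genes, 207 reached 1 FPKM in at least 3 of the 6 libraries and could be tested, the remaining 27 did not, and 22559 of all genes passed that filter.

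The libraries came from leaves of Populus davidiana, an aspen, at the stage labelled seedling, all of cultivar Odae19, labelled tolerant for drought sensitivity. The 3 air-dried libraries came from plants that had been pulled out of the culture medium, rinsed with sterile water and exposed to open air for about 10 min, and air-dried stands for all of these steps. The 3 control libraries came from the same cultivar, stage and tissue without that treatment, and the labels do not say whether control plants were pulled out or rinsed. Plants of both groups had been multiplied in vitro from internodes on a medium with sucrose and naphthalene acetic acid, an auxin, and were about 6 weeks old. Poly(A) RNA was read with a kit that does not keep the strand. Where genes on opposite strands share sequence, their reads from it cannot be told apart by strand. No label states that the replicates were separate plants, so each p-value refers to the spread between samples that may be technical repeats. In whole leaves, fewer cells of a type and less RNA per cell cannot be told apart. The sources used here pair no identifier with a gene name, so no function is given for any gene, and the tissue could not be checked against leaf markers.

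A plant gene is transcribed as one precursor from which introns are removed, and a long genomic span usually reflects long or many introns rather than a long messenger RNA. A polymerase needs more time to reach the end of a long gene than that of a short one. Assembly programs such as Cufflinks build transcripts from reads that cross splice junctions, and such a transcript can extend beyond the annotated gene or connect it with sequence far away. The span of a gene in a table that also holds assembled transcripts is therefore a property of the annotation and of the assembly together.

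The 234 genes were of 2 kinds. In 75 genes the annotated transcripts alone spanned at least 15000 bp, while 159 genes reached that length through an assembled transcript. The second kind had a median annotated span of 3118 bp, with values between 293 and 14978 bp, against a median full span of 27815 bp. The plot of annotated and full spans shows the first kind lying along the diagonal and most of the second kind above it. All 41 genes with a span of at least 50000 bp and all 14 with at least 200000 bp were of the second kind, and the largest annotated span was 38036 bp. By their annotation alone, most of the 234 are thus not genes of 15 kb or more.

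**Figure D1:**
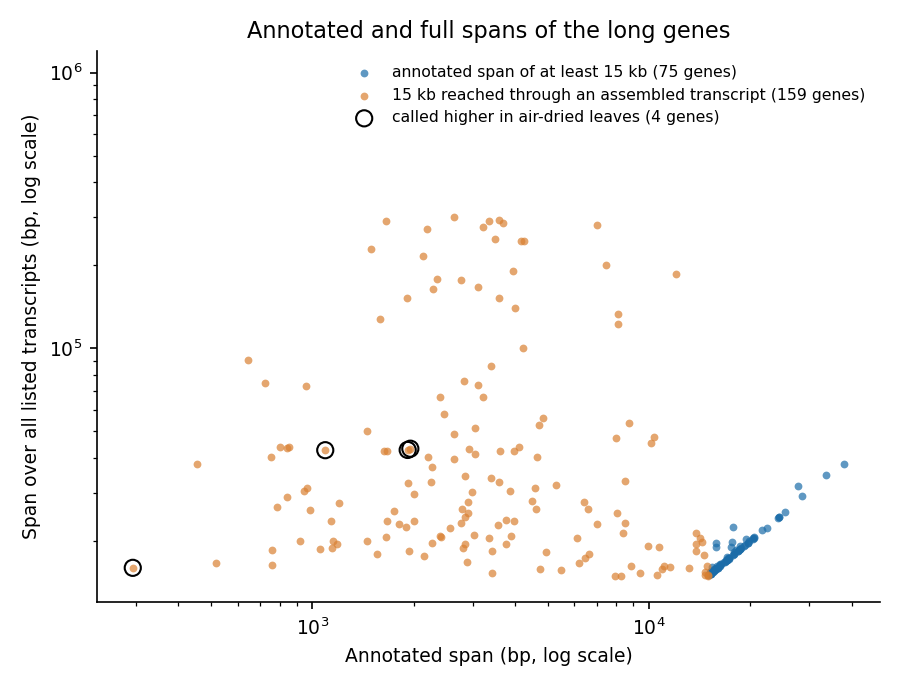
Each point is 1 of the 234 genes, with its annotated span in bp (horizontal log axis) against its span over all listed transcripts in bp (vertical log axis). The 75 genes with an annotated span of at least 15 kb (blue) reach 38179 bp, the 159 others (orange) reach 298521 bp, and open circles mark the 4 genes called higher in air-dried leaves.

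The genes were spread over all 19 chromosomes and 16 unplaced scaffolds, which held 17 of them. Chromosome 1 had the most, with 25, and chromosome 19 the highest share of its annotated genes, with 15 of 1169 (1.28%), of which 13 were of the assembled kind. Chromosome 9 had the lowest share, 0.390%. The strands were about even, with 120 genes on the plus and 114 on the minus strand. Their 1788 listed transcripts comprised 264 annotated and 1524 assembled ones. A gene with an annotated span of at least 15 kb had a median of 10 transcripts, and a gene of the assembled kind had 3. In 102 of the 159 genes of the assembled kind, exactly 1 transcript was at least 15000 bp long.

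Where an assembled transcript carried the span past 15 kb, the longer of its extensions beyond the annotated gene had a median of 24911 bp and reached 295887 bp. It lay on the 5′ side in 72 of the 159 genes and on the 3′ side in 87, and 7 of the genes were extended by more than 1000 bp on both sides. These spans ran across other genes. In 141 of 159 (88.7%) the span overlapped another gene or merged locus with an annotated transcript, and 20 spans each overlapped at least 10. Of the 75 genes with an annotated span of at least 15 kb, 68 overlapped none. The far end lay within an annotated transcript of another gene in 41 of the 159, on the opposite strand in 36 of these and on the same strand in 5. In 4 cases, on chromosomes 3, 7, 11 and 13, the relation was mutual, so that 2 genes on opposite strands each had an assembled transcript that ended in the other.

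The longest span was that of POPTR_0014s09280.r1, on chromosome 14, minus strand (6881679 to 7180199, 298521 bp), whose annotated part is 2634 bp. It had 84.5, 81.6 and 87.7 FPKM in air-dried leaves, against 96.8, 91.4 and 94.4 FPKM in control leaves. The groups did not overlap, but the log2 difference was −0.15 (SE 0.070) and limma with Benjamini-Hochberg adjustment gave an adjusted p of 0.358. Transcripts of at least 15 kb held 18.2% and 14.1% of its FPKM in air-dried libraries 2 and 3 and 42.1% in control library 3, and practically none in the other 3 libraries. The annotated transcript, with 87.4% of the FPKM over all libraries, was thus the main one in this longest of the listed genes.

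The other 4 of the 5 longest differed in how much their long transcripts contributed. POPTR_0003s17010.r1 on chromosome 3 (16232723 to 16521829) had 1081, 838 and 817 FPKM in air-dried leaves and 1010, 1098 and 852 FPKM in control leaves. Its 289107 bp rested on a transcript with 0.045% of its FPKM. In POPTR_0017s00640.r1 on chromosome 17 (82233 to 373296) the transcripts of at least 15 kb carried 68.0, 34.9 and 26.8% of the FPKM in air-dried leaves and 83.2, 85.8 and 12.4% in control leaves. Libraries of 1 group thus differed widely in this share. For POPTR_0016s04430.r1 on chromosome 16 (2317512 to 2606840) the share was 54.3% over all libraries, and for POPTR_0003s13020.r1 on chromosome 3 (13145843 to 13431004) it was 26.2%.

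The expressed long genes had a median level of 12.96 FPKM, against 11.8 FPKM over all genes tested. The median was 11.6 FPKM for the 71 tested genes with an annotated span of at least 15 kb and 14.2 FPKM for the 136 tested genes of the assembled kind. The coefficient of variation over the 6 libraries had a median of 12.9% in the long genes and 13.5% in all genes tested. Means over 100 FPKM were reached by 18 long genes, 16 of them of the assembled kind, and 44 of the 207 stayed under 5 FPKM. All 4 genes over 1000 FPKM were of the assembled kind.

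The most abundant was POPTR_0005s15660.r1 on chromosome 5, minus strand (12035432 to 12265167). Its level was 3297, 5087 and 4589 FPKM in air-dried leaves, against 4075, 3539 and 5117 FPKM in control leaves. The groups overlapped throughout. Its annotated transcript spans 1493 bp, and the second, assembled transcript extends the gene to 229736 bp. That transcript held 47.5, 2.92 and 5.70% of the FPKM in air-dried leaves and 55.3, 69.4 and 2.05% in control leaves. The level of the gene varied far less between libraries than the share of its transcripts. POPTR_0004s01510.r1 on chromosome 4 (838421 to 867990) showed the same in sharper form. Its level was 3085, 2905 and 2646 FPKM in air-dried leaves and 3229, 3065 and 2911 FPKM in control leaves, a coefficient of variation of 6.76%. Its 29570 bp transcript held 3.88, 99.96 and 99.93% of this in air-dried leaves and 40.5, 7.25 and 99.94% in control leaves, and the 2008 bp annotated transcript held the rest. The high and low shares were found in both groups. In this gene and in POPTR_0005s15660.r1, air-dried libraries 2 and 3 and control library 3 stood apart from the other 3 libraries. The same held for 10 of the 20 genes named here that had a share in every library. Those 3 libraries were all above the others in 7 genes and all below in 3. The 20 include the genes in which the division is described here, so the count is no separate support for it. It was not counted over all 207 tested long genes. In POPTR_0005s22830.r1, which is among the 10, no share exceeded 2.44%. This division crosses the groups unevenly.

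POPTR_0005s22830.r1 on chromosome 5 (21716065 to 21739248) had 2530, 2822 and 2683 FPKM in air-dried leaves and 2541, 2652 and 2700 FPKM in control leaves, with 99.2% from its annotated transcript. POPTR_0014s19660.r1 on chromosome 14, minus strand (17519728 to 17672115), was the only one of the 5 most abundant whose groups did not overlap. It had 3073, 1745 and 2257 FPKM in air-dried leaves, against 1278, 981 and 1226 FPKM in control leaves. Each air-dried library was above each control library, with a log2 difference of 0.99 (SE 0.24), but limma with Benjamini-Hochberg adjustment gave an adjusted p of 0.0959. Transcripts of at least 15 kb carried all of its FPKM in 5 libraries and 43.8% in control library 3. One assembled transcript of 152388 bp held 92.3% over all libraries, and its span overlaps 11 other listed genes.

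The steadiest long gene was POPTR_0003s09090.r1 on chromosome 3, minus strand (10408617 to 10433051), with a coefficient of variation of 2.41%. It had 15.5, 15.1 and 16.2 FPKM in air-dried leaves and 15.8, 15.8 and 15.6 FPKM in control leaves. It belongs to one of the 4 mutual pairs on opposite strands. The next steadiest were POPTR_0006s27650.r1, POPTR_0019s07900.r1, POPTR_0006s24090.r1 and POPTR_0018s02350.r1, at 2.72 to 3.92%. POPTR_0019s07900.r1 on chromosome 19 (9192729 to 9208636) is annotated over 15810 bp, and its annotated transcript carried 72.7% of its FPKM. It had 19.2, 19.6 and 19.8 FPKM in air-dried leaves and 19.9, 20.9 and 20.7 FPKM in control leaves.

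The largest number of transcripts, 57, was listed for POPTR_0001s08950.r1 on chromosome 1 (6844773 to 6860019), annotated over its full 15247 bp. It had 5.29, 5.60 and 7.07 FPKM in air-dried leaves and 6.001, 5.80 and 7.27 FPKM in control leaves. Nearly all of this level was assigned to assembled transcripts, and the most abundant one, of 5078 bp, held 34.4% of it. POPTR_0017s06640.r1 on chromosome 17 (5042092 to 5080270) has the longest annotated span of all, 38036 bp, and 42 listed transcripts. Its level was 8.52, 10.5 and 9.78 FPKM in air-dried leaves and 7.39, 8.84 and 8.92 FPKM in control leaves. An assembled transcript of 7926 bp carried 80.8% of it, and transcripts of at least 15 kb carried 15.4%. The others were POPTR_0001s45840.r1 with 41 transcripts, POPTR_0007s11950.r1 with 36 and POPTR_0015s03420.r1 with 34.

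Over all 207 tested long genes, the annotated transcripts held a median of 12.4% of a gene's FPKM, against 76.9% over all tested annotated genes. The median was 1.05% in the 71 genes with an annotated span of at least 15 kb, where the annotated transcript was the most abundant one in 12. It was 16.6% in the 136 genes of the assembled kind, where it was the most abundant one in 46. The choice of genes fixed part of the gap between 12.4% and 76.9%. The 136 are members only because they have an assembled transcript. All 207 had several transcripts, against 14344 of the 19084 tested annotated genes. A lone annotated transcript holds all of its gene's FPKM by definition. The same transcript was the most abundant in all 6 libraries in 105 long genes (50.7%), and in 62.7% of the 14344 tested annotated genes with several transcripts. The share of a gene's FPKM in transcripts of at least 15 kb was compared between its highest and its lowest library. It differed by more than 50 percentage points in 29 of the 136 genes of the assembled kind and in 0 of the 71 others. In those 71, 779 of the 920 listed transcripts were at least 15000 bp long, and in 81 of the 136 exactly 1 transcript was that long. Over all libraries the share in the 71 genes ranged from 4.41 to 100%, with a median of 95.5%. Any bearing of these values on the difference was not tested. Of the summed FPKM of the 207 genes, assembled transcripts carried 47.6, 48.1 and 50.7% in air-dried leaves and 50.7, 47.0 and 42.8% in control leaves. The means were 48.8 ± 1.64% and 46.8 ± 3.98% (SD, n = 3 each), and the groups overlapped. By library, the assembled share was 79.7 to 85.0% in the 71 genes and 39.0 to 48.0% in the 136. It was 67.4 to 71.1% in the 1242 tested annotated genes spanning 8000 bp to just under 15000 bp. A high assembled share was thus not particular to spans of at least 15 kb.

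In air-dried leaves few of the long genes passed the test. The difference was taken on the log2(FPKM + 1) scale, where that of genes with low values comes out too small. On it limma with Benjamini-Hochberg adjustment over all 22559 genes called 4 of the 207 higher in air-dried leaves at an adjusted p under 0.05 (1.93%). Among all genes tested 4.3% were called, 3.61% higher and 0.696% lower. No long gene was called lower. With library weights, 11 were called higher and 4 lower, while 2516 of all 22559 genes tested were called either way. With annotated transcripts alone, 1 of 109 tested long genes was called higher and 0 lower, against 538 of 17162 genes. That 1 gene was not among the 4. With a term for the division that set air-dried libraries 2 and 3 and control library 3 against the others, 5 were called higher and 0 lower. Of all 22559 genes tested, 1236 were then called either way. The median log2 difference of the long genes was −0.016. That division is itself described from these same libraries. At an unadjusted p under 0.05, limma gave 14 higher and 6 lower long genes, 9.66% of the 207 against 16.5% of all genes tested. The groups did not overlap in 15 higher and 15 lower long genes, 7.25% each, where the figures for all genes tested were 13.4% higher and 9.18% lower. The median log2 difference was 0.033 in the long genes and 0.0037 in all genes tested, and the median SE was 0.128 and 0.119. After rescaling of the libraries to a common sum the median log2 differences were 0.33 and 0.31, so they moved together. In the test of single transcripts, 3 of 480 tested transcripts of long genes were called (0.625%), against 0.866% of all transcripts tested. All 3 were higher in air-dried leaves and at least 15000 bp long, as were 268 of the 480 in length. They came from the chromosome 13 segment described below and from POPTR_0017s03340.r1. The transcript of the latter, listed at 0 in all control libraries, passed the filter through the air-dried libraries alone. A difference was thus bound to appear there.

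**Figure D2:**
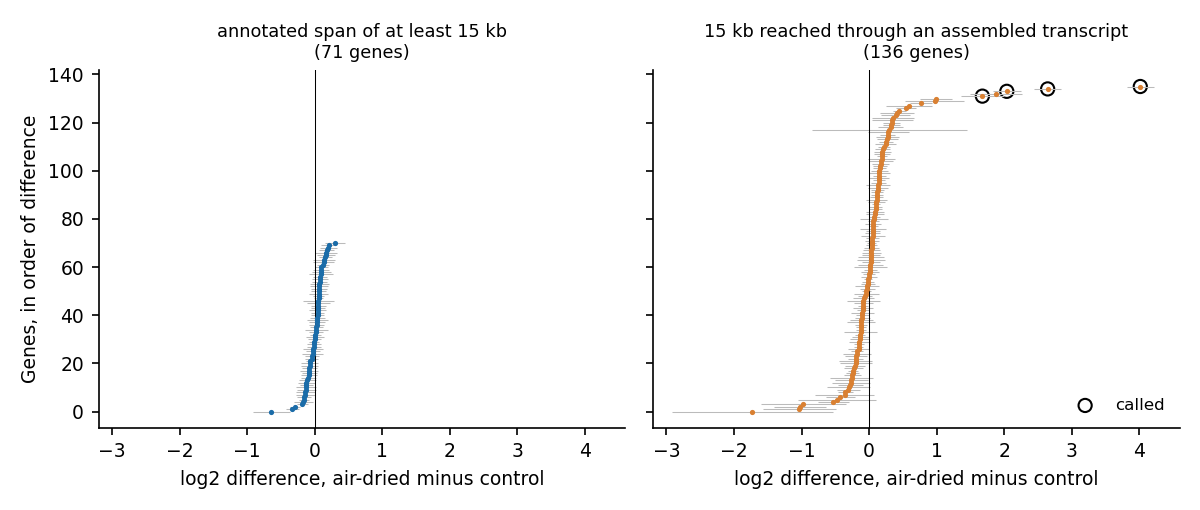
The log2 difference between air-dried and control leaves on the log2(FPKM + 1) scale (horizontal axis) is drawn for each tested long gene in order of size (vertical axis), with bars for its SE from limma and open circles for the called genes. The 71 genes with an annotated span of at least 15 kb lie between −0.64 and 0.30 with none called, and the 136 others lie between −1.73 and 4.02 with 4 called.

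The genes that are long by annotation stood within a narrow range. Limma with Benjamini-Hochberg adjustment called 0 of the 71, with a lowest adjusted p of 0.122, and 2 of them, both lower in air-dried leaves, had an unadjusted p under 0.05. Their log2 differences lay between −0.64 and 0.30, and 67 of them (94.4%) were within 0.25 of 0, against 73.9% of all genes tested. The next shorter class, the 1242 tested annotated genes spanning 8000 bp to just under 15000 bp, had 4 genes called higher (0.322%) and 3 called lower (0.242%). The difference between these shares was not tested. The median coefficient of variation over the 6 libraries was 9.41% in that class and 10.7% in the 71 genes. Steadiness was therefore not particular to the genes that are long by annotation. All 4 calls among the long genes were of the assembled kind (2.94% of 136, against 3.61% of all genes tested called higher). Each of the 4 overlaps another listed gene, and the values of the annotated transcripts alone are therefore given beside the totals.

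The called gene with the highest level was POPTR_0013s10350.r1, on the plus strand of chromosome 13 (10469858 to 10513159), with its annotated transcript at 10469874 to 10471829. It had 353, 222 and 260 FPKM in air-dried leaves, against 44.1, 49.2 and 36.3 FPKM in control leaves. Every air-dried library lay far above every control library. The means were 279 ± 67.4 and 43.2 ± 6.52 FPKM (SD, n = 3 each), a log2 difference of 2.64 (SE 0.20, limma with Benjamini-Hochberg adjusted p = 0.00121). An assembled transcript of 43302 bp carried most of this, with 280, 214 and 242 FPKM in air-dried leaves and 32.0, 38.7 and 35.6 FPKM in control leaves. The annotated transcript had 2.08, 6.51 and 4.71 FPKM in air-dried leaves, against 0.880, 0.530 and 0.742 FPKM in control leaves. It too was higher in each air-dried library, but its adjusted p in the limma test over single transcripts was 0.234. With annotated transcripts alone summed for every gene, the adjusted p of POPTR_0013s10350.r1 was 0.0961.

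On the opposite strand the same segment holds a second called gene (10471259 to 10514111), annotated only at 10512191 to 10514111. It had 26.2, 15.4 and 15.6 FPKM in air-dried leaves, against 4.12, 3.44 and 3.69 FPKM in control leaves. The means were 19.1 ± 6.21 and 3.75 ± 0.345 FPKM (SD, n = 3 each), a log2 difference of 2.04 (SE 0.21, limma with Benjamini-Hochberg adjusted p = 0.00444). Its annotated transcript had 0.774, 0.553 and 1.15 FPKM in air-dried leaves and 0.519, 0.232 and 0.703 FPKM in control leaves, which overlap. The 2 genes form one of the mutual pairs, each with an assembled transcript that ends in the annotated part of the other. Because strands are not kept, reads from sequence that both share cannot be told apart by strand. How much sequence they share is not known, since exons are not listed. Another annotated gene between them (10494155 to 10497494, plus strand) is listed at 0 in all 6 libraries.

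**Figure D3:**
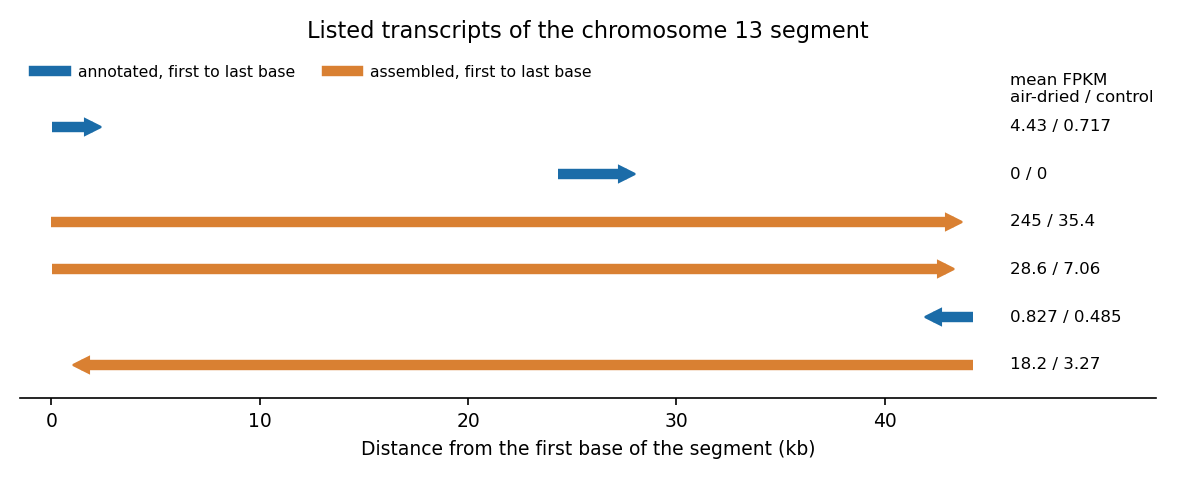
The arrows are the 6 listed transcripts of the chromosome 13 segment by distance in kb from its first base, pointing in the direction of transcription (blue annotated, orange assembled; exons are not in the files). The numbers are mean FPKM in air-dried leaves and in control leaves (n = 3 each), which were 245 and 35.4 FPKM for the most abundant assembled transcript and 4.43 and 0.717 FPKM for the annotated transcript at the left end.

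POPTR_0017s03340.r1, on the plus strand of chromosome 17 (2410550 to 2426567), had the lowest adjusted p of the long genes. It had 15.4, 20.2 and 11.2 FPKM in air-dried leaves and was listed at 0 in all 3 control libraries (limma with Benjamini-Hochberg adjusted p = 0.000237). No fold is given against a group listed at 0. The gene passed the filter through the air-dried libraries alone, so a difference was bound to appear, and without it 3 long genes were called. Its whole level was assigned to 1 assembled transcript of 16018 bp, and the annotated transcript of 293 bp (2426275 to 2426567) was listed at 0 in all 6 libraries. A locus on the opposite strand (2393178 to 2420058), which includes 3 annotated transcripts, overlaps it. That locus had 20.7, 24.8 and 24.0 FPKM in air-dried leaves and 20.0, 22.1 and 20.2 FPKM in control leaves (limma with Benjamini-Hochberg adjusted p = 0.515). Another long gene on the same strand also overlaps it (2397241 to 2463881) and stayed under 0.5 FPKM in every library.

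The last called gene lies on the plus strand of the unplaced scaffold_256 (1043 to 43805), with its annotated part at 1043 to 2135. It had 26.8, 14.9 and 18.6 FPKM in air-dried leaves, against 6.23, 7.66 and 3.23 FPKM in control leaves. The groups did not overlap, and the means were 20.1 ± 6.09 and 5.71 ± 2.26 FPKM (SD, n = 3 each). Their log2 difference of 1.68 (SE 0.32) had an adjusted p of 0.0466 in limma with Benjamini-Hochberg adjustment. This call was lost under 11 of 21 alternative settings, among them the omission of any single library, with adjusted p-values up to 0.157. The log2 difference stayed between 1.38 and 1.89 in those 11 settings. The gene has 2 assembled transcripts with the same ends and equal values. These were 11.6, 7.46 and 9.08 FPKM each in air-dried leaves and 2.89, 3.83 and 1.62 FPKM each in control leaves. In the limma test over single transcripts each had an adjusted p of 0.139. The total of the gene counts both. Its annotated transcript had 3.56 FPKM, practically 0 and 0.438 FPKM in air-dried libraries 1, 2 and 3, against 0.462 FPKM in control library 1 and practically 0 in the other 2 control libraries. These values overlap, and the transcript did not pass the filter. An annotated gene within the span, on the opposite strand, is listed at 0 throughout.

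**Figure D4:**
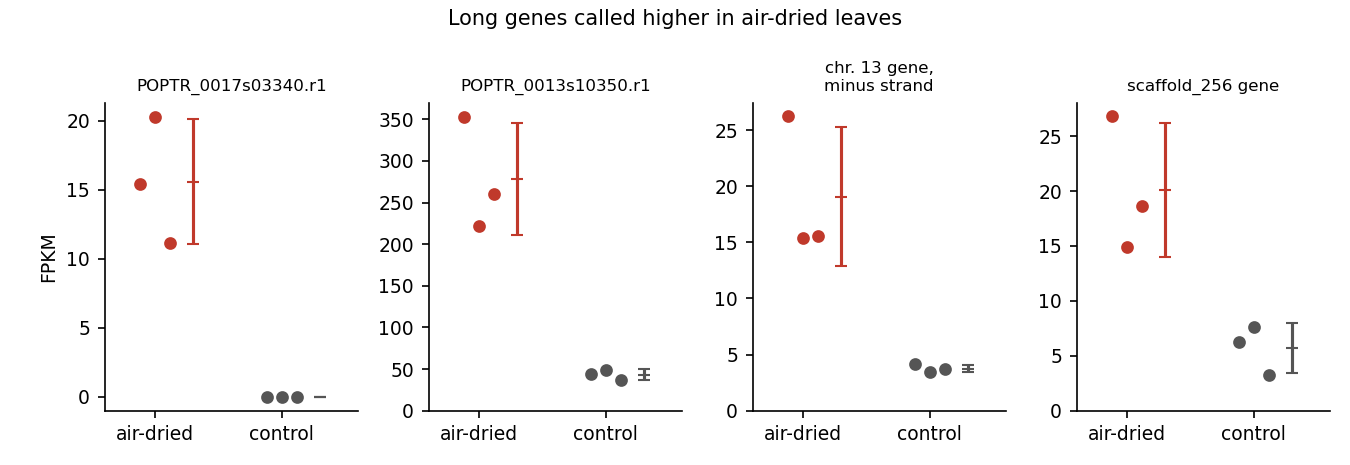
The FPKM of the 4 called long genes is shown for each library (points) with the mean and SD of the 3 air-dried (red, left) and 3 control (grey, right) libraries, on a linear axis for each gene. In each panel all air-dried values lie above all control values, and the 3 control values of POPTR_0017s03340.r1 are listed at 0.

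The 6 libraries differed from one another along gene span, in a way that did not follow the groups. For each gene the log2 value of a library was taken relative to the mean of that gene over the 6 libraries. In the 71 genes with an annotated span of at least 15 kb the median of this deviation was −0.106, 0.087 and 0.036 in air-dried libraries 1, 2 and 3 and −0.163, 0.038 and 0.109 in control libraries 1, 2 and 3. Air-dried library 1 and control library 1 were thus the low libraries of their groups. Control library 1 was above control library 2 in only 4 of the 71 genes, and air-dried library 1 above air-dried library 2 in only 9. In genes spanning under 1000 bp the same libraries were the high ones of their groups, with medians of 0.201, −0.141 and 0.027 in air-dried leaves and 0.139, 0.041 and −0.203 in control leaves. The genes of the assembled kind, with medians between −0.046 and 0.051, lay closer to 0. The part of this pattern in the small number of calls was not tested beyond the alternative in which each library's trend with span was removed, where 3 long genes were called higher and 1 lower.

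**Figure D5:**
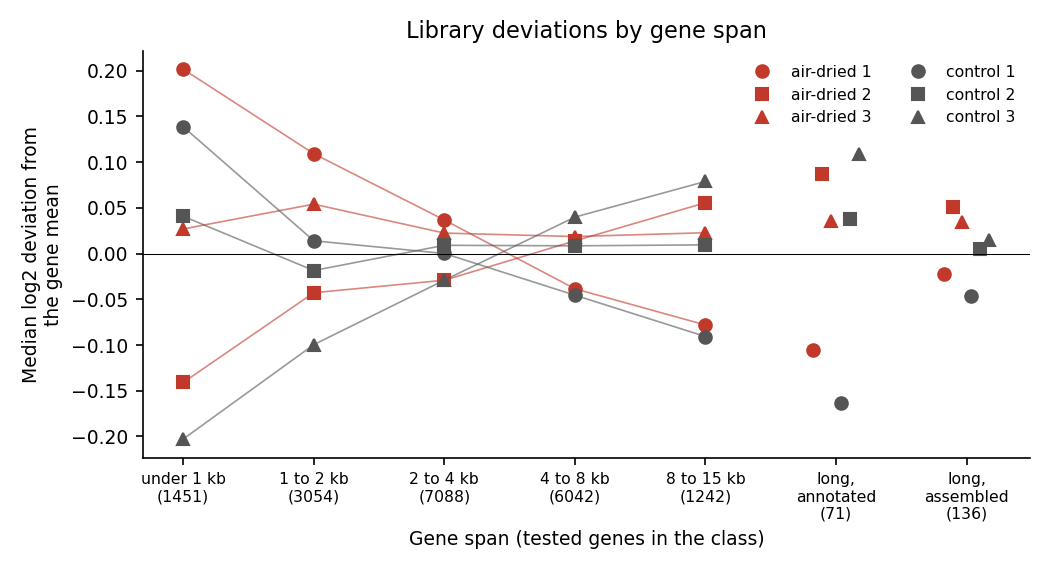
The median over genes of the log2 deviation of each library from the gene mean (vertical axis) is drawn by class of gene span (horizontal axis, number of tested genes in brackets), with air-dried libraries in red and control libraries in grey. Replicate 1 of both groups is highest or next to highest in genes under 1 kb and lowest in the 71 genes that are long by annotation, at −0.106 and −0.163.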

How the data were processed

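Leaf RNA of 3 air-dried and 3 control samples was compared, with groups and replicate numbers taken from the sample titles. The authors deposited 1 table per library, with a position, a status (known or assembled) and an FPKM value for each transcript, per the file headers. FastQC, TopHat and Cufflinks are named in the submitters' processing notes, while genome build, annotation release and settings were not given in the sources used here. FPKM does not keep the number of reads, so depth is unknown and no counting interval is given. Coordinates are those of the files.

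FPKM was summed over the transcripts of a gene, genes reaching 1 FPKM in 3 or more of the 6 libraries were kept, and log2(FPKM + 1) was compared without further scaling with limma 3.58.1 in R 4.3.3 (intensity trend, 2-sided, Benjamini-Hochberg over all genes tested, called at an adjusted p under 0.05). The procedure was tested on simulated data. Tables and figures were made with Python 3.11.15, pandas 2.3.3 and matplotlib 3.10.9. Overlap means at least 1 shared base between spans on either strand. Genes are named where they were among the 5 with the longest span, the highest mean, the lowest coefficient of variation or the most transcripts, plus 2 called genes. The members and lists were chosen with earlier results of these data known. Filters, pseudocounts, scalings, single libraries, a replicate block, library weights, span definitions and overlaps were varied. The replicate numbers were not taken to pair the samples. Columns of samples outside the series numbered 0.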

Additional observations from a re-analysis of the deposited data

How the results depend on the processing

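The count of long genes called higher, 4, stayed within 1.5 times under 23 of 27 alternatives. It was 11 with library weights, 1 with annotated transcripts alone, and 0 both for spans from annotated transcripts alone and for long genes that overlap no other POPTR gene. The 1 gene called with annotated transcripts alone was not among the 4. An equal count did not always mean the same genes. Without control 2, 4 were called higher, of which 3 were among the 4. The count called lower, 0, stayed at 0 under 21 of 27. It was 2 without control 3 and air-dried 1, 4 with library weights, 1 with each library's span trend removed and 1 for spans of at least 10000 bp. The median log2 difference, 0.033, was 0.33 after rescaling to a common sum, where the median of all genes was 0.31. Omitting 1 library at a time gave 3 to 4 genes called higher, 0 to 1 called lower (1 without control 3 and 1 without air-dried 2), a median log2 difference of −0.021 to 0.068, and an air-dried minus control difference in assembled share of −0.068 to 3.91 percentage points, with 1.96 in all libraries. The cause of these shifts was not tested.

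With the replicate block, 3 long genes were called higher and 0 lower, and the median log2 difference was 0.033. Between the groups, the deviations from the group mean correlated for equal numbers at 0.24, −0.15 and 0.12. Correlations for unequal numbers are not given, so these values cannot decide whether the samples were paired. The numbers were not taken to pair the samples.

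The 2 called genes on chromosome 13 kept an adjusted p under 0.05 under all alternatives tried that could test them, except POPTR_0013s10350.r1 with annotated transcripts alone (0.0961). No such statement is made for POPTR_0017s03340.r1, which is listed at 0 in all controls and passed the filter through the air-dried libraries alone. With 3 libraries a group, unknown depth and no strand, small differences and the source strand of overlapping transcripts cannot be resolved here. The alternative that took the assembled kind alone was chosen after seeing the data and gave 4 higher and 0 lower.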

Other observations

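Beside the POPTR identifiers, the tables hold merged loci with their own identifiers that include annotated transcripts. There were 2393 of these, 2348 of which held transcripts of at least 2 annotated genes. A span of at least 15000 bp was reached by 785 merged loci, of which 667 passed the filter. Their median level was 12.1 FPKM, and they held a median of 2 and at most 11 annotated genes. Limma with Benjamini-Hochberg adjustment called 44 of the 667 higher (6.60%) and 2 lower (0.30%) in air-dried leaves, against 3.61% and 0.696% of all genes tested. This difference in shares was not tested. The median log2 difference was 0.053. Annotated transcripts listed under these loci did not count towards the 234 genes.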
